A study of Homo sapiens with 4 samples.

Results

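The R-spondin module examined here consists of 9 genes: the secreted ligands RSPO1, RSPO2, RSPO3 and RSPO4, the receptors LGR4, LGR5 and LGR6, and the membrane-bound ubiquitin ligases ZNRF3 and RNF43. They were chosen by gene symbol, and all 9 were found among the 17894 genes of the deposited RNA-SEQ tables. The tables hold 4 libraries, all of H1 cells, a human embryonic stem cell line, that were differentiated toward blood on mAGM-S3, a mouse stromal cell line, and sorted at day 2 as TRA-1-85+ cells, a gate that keeps human cells. The control library came from wild type H1 cells without added ligand. The R-spondin2 library came from wild type H1 cells that received R-spondin2 protein at 20 ng/mL for 1 day. The other 2 libraries came from LGR4-/- H1 cells whose labels name no R-spondin2 treatment. The protocol text with the R-spondin2 treatment is attached to every library, so that the labels do not settle whether the LGR4-/- cells received the protein. The LGR4-/- libraries are numbered 1 and 2 and are taken here as 2 clones, clone 1 and clone 2, although the sources used here do not say that they are separate lines. How LGR4 was inactivated is not given there either. Both share the single control library, so that no difference below has a replicate check and no p-value was computed.

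R-spondins are secreted proteins that strengthen WNT signaling. WNT ligands bind Frizzled receptors and their LRP co-receptors and stabilize β-catenin, which acts with TCF/LEF factors on target genes. ZNRF3 and RNF43 mark Frizzled receptors for removal from the cell surface, and an R-spondin that bridges an LGR receptor and ZNRF3 or RNF43 takes the ligase off the surface, which leaves more Frizzled in place. ZNRF3, RNF43 and LGR5 are themselves known WNT target genes in several tissues, and WNT signaling is needed for primitive streak and mesoderm formation.

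Values are FPKM, in which the fragments of a gene are divided by the length of its transcripts and by the mapped fragments of the library, so that levels of different genes can be set side by side. Depth was estimated from the steps between the lowest values at 8700000 to 8920000 reads per library, and the highest estimate was 1.03 times the lowest. The reads quoted for a gene follow from this estimate and the transcript length. The 95% Clopper-Pearson intervals computed from them cover counting error only, not the spread between cultures. Differences are given as log2(FPKM+1), on which changes of weakly expressed genes appear smaller than they are. A gene was called at a difference of at least 2-fold on this scale if its mean over the 4 libraries was at least 1 FPKM, which held for 12697 genes and for 6 of the 9 members. RSPO1, RSPO2 and LGR6 did not pass. The median difference over the 12697 genes was -0.01 for R-spondin2, 0.02 for clone 1 and 0.02 for clone 2, and the SD over genes was 0.21 for R-spondin2 against control and 0.22 for clone 2 against clone 1.

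LGR4, the targeted gene, was still transcribed in both LGR4-/- libraries. LGR4 is a seven-pass membrane receptor with a large leucine-rich extracellular domain that binds all R-spondins. Its level was 21.8 FPKM in the control library, 24.3 FPKM with R-spondin2, 7.40 FPKM in clone 1 and 13.9 FPKM in clone 2. Both clones were below both wild type libraries, at 34.0% of the control level in clone 1 and 64.1% in clone 2. The share of all genes with such an order is not given, here or for RSPO3 and LGR5 below, so the order alone sets no member apart. The implied reads were 1011, 1099, 343 and 640 in the same order. The level was therefore 2.94-fold lower in clone 1 (interval 2.60 to 3.34) and 1.56-fold lower in clone 2 (interval 1.41 to 1.73), and the log2 differences were -1.44 and -0.61. Clone 2 was 1.89-fold above clone 1 (interval 1.65 to 2.16). An FPKM sums reads over the whole transcript, so these values do not show whether the remaining RNA encodes an intact receptor.

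The start region of LGR4 is shown because this gene is both the target of the knockout and a transcript whose level differed between the libraries, and those of RSPO3 and RSPO4 because these ligands moved apart. Each window runs 5′ to 3′ from 250 bases before to 50 bases after the annotated start in RefSeq on GRCh38.p14, a later build than the hg19 of the submitters' processing notes. Capitals mark CCAAT boxes and the octamer ATTTGCAT, a sequence that POU factors such as POU5F1 are known to bind.
LGR4, chr11:27472741-27473040, minus strand: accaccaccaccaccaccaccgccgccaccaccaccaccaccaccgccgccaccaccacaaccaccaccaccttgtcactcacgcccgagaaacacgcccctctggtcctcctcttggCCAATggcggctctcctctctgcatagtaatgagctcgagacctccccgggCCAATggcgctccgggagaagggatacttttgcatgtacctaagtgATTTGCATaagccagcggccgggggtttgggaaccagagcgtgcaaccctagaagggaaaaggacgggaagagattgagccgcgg
RSPO3, chr6:127118421-127118720, plus strand: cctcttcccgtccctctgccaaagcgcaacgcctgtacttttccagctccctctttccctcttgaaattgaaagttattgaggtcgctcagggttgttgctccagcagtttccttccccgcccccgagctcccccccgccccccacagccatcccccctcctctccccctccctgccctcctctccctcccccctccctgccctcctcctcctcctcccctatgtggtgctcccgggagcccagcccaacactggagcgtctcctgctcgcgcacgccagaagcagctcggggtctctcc
RSPO4, chr20:1002262-1002561, minus strand: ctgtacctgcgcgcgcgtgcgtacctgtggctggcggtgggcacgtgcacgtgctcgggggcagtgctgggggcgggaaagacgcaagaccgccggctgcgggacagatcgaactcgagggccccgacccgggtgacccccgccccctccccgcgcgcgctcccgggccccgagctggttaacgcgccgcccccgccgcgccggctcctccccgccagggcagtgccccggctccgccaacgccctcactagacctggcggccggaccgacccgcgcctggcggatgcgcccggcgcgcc

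The windows of these genes differ in base composition, with a GC content of 61.3% for LGR4, 65.3% for RSPO3 and 78.3% for RSPO4, against a median of 58.7% over the 35116 windows of all genes. The TCF/LEF letters CTTTGAA and CTTTGAT, searched on both strands, were in none of the 9 windows matched to 6 members (1 each for RSPO1, RSPO3, RSPO4 and LGR4, 2 for RNF43, 3 for LGR6), and 6.86% of all windows hold them. The CCAAT and octamer letters were searched for after the sequences had been read. The octamer, on either strand, was in the LGR4 window alone among the 9 windows, 35 bases before the start, and in 1.77% of all windows. CCAAT boxes, on either strand, were in 3 of the 9 windows, those of LGR4, of 1 LGR6 start and of 1 RNF43 start, and in 34.6% of all windows. These matches describe letters in a window and not bound sites.

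**Figure D1:**
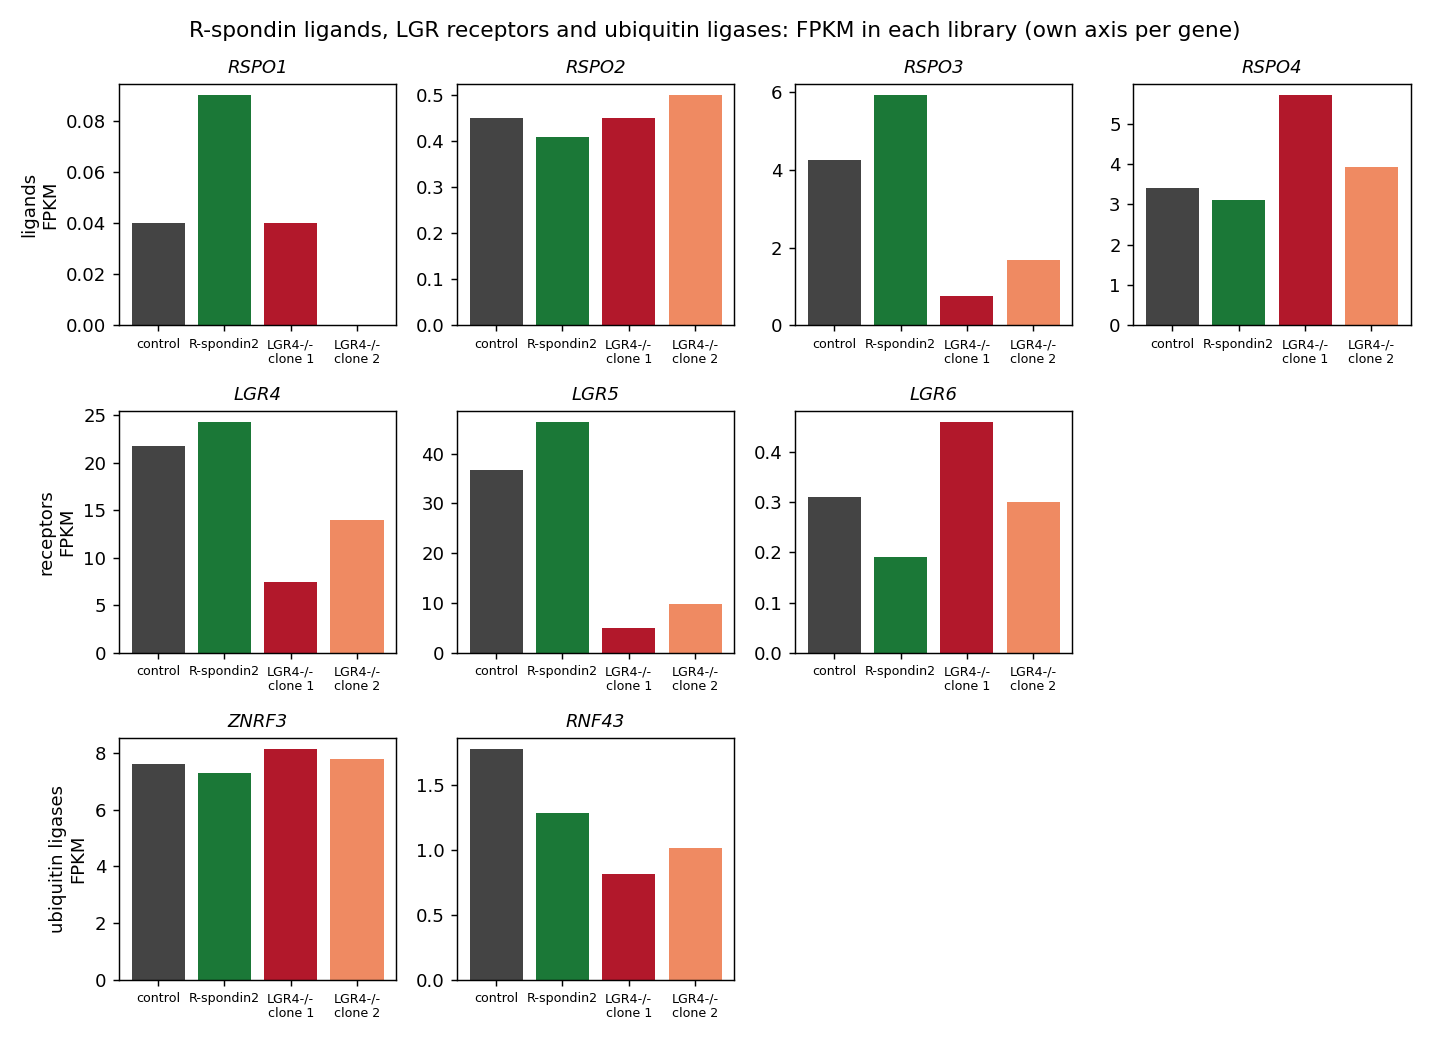
FPKM (linear axis from 0, a separate axis for each gene) of the 9 genes in the control, R-spondin2 and 2 LGR4-/- libraries, 1 bar for each library and no error bars because each bar is 1 library. LGR5, LGR4, RSPO3 and RNF43 stand lower in both clones than in both wild type libraries. ZNRF3 is nearly level, and RSPO1 is at 0 in clone 2.

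In the control library, the receptors were the most abundant class and the ligands and ligases lay well below them. LGR5 was highest at 36.7 FPKM and LGR4 followed at 21.8 FPKM. ZNRF3 was at 7.61 FPKM, RSPO3 at 4.27 FPKM, RSPO4 at 3.42 FPKM and RNF43 at 1.77 FPKM. RSPO2 (0.45 FPKM), LGR6 (0.31 FPKM) and RSPO1 (0.04 FPKM) closed the order, at 10, 7 and 1 implied reads. Of all genes, 88.0% were lower than LGR5 in the control library, 57.9% were lower than ZNRF3 and 47.2% were lower than RSPO3. With 1 library, the neighbors in this order have no spread to be set against.

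Among the ligands, RSPO3 was the member whose level varied most. RSPO3 is known for its part in blood vessel and placenta formation. Its level was 4.27 FPKM in the control library, 5.93 FPKM with R-spondin2, 0.77 FPKM in clone 1 and 1.69 FPKM in clone 2, from 103, 139, 19 and 40 implied reads. Both clones lay below both wild type libraries. The level was 5.55-fold lower in clone 1 than in control (interval 3.30 to 9.36) and 2.53-fold lower in clone 2 (interval 1.75 to 3.76). On the log2(FPKM+1) scale these differences were -1.57 and -0.97, so that clone 1 was past 2-fold and clone 2 just short of it. Clone 2 was 2.19-fold above clone 1 (interval 1.20 to 3.89). With R-spondin2, RSPO3 was 1.39 times the control level (interval 1.06 to 1.80).

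RSPO4, a ligand known from inherited absence of the nails, did not follow RSPO3. Its level was 3.42 FPKM in the control library, 3.10 FPKM with R-spondin2, 5.71 FPKM in clone 1 and 3.93 FPKM in clone 2. Clone 1 was the highest and the other libraries lay close together. The clone 1 level was 1.67 times the control level, and its interval depends on which of 2 transcripts was counted: 0.967 to 2.996 at the shorter length of 722 bases and 1.26 to 2.21 at the longer length of 2707 bases. For R-spondin2 and for clone 2 against control, the interval held 1 at either length, and at the longer it was 0.649 to 1.25 for R-spondin2 and 0.844 to 1.56 for clone 2.

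RSPO2, the gene of the added ligand, was low and level in all libraries, at 0.45, 0.41, 0.45 and 0.50 FPKM in control, R-spondin2, clone 1 and clone 2. The cells were sorted as human, so neither these levels nor the ligand sums below measure R-spondins made by the mAGM-S3 cells. By real-time PCR, the paper found R-spondin2 to be the most expressed R-spondin of those stromal cells. For the RSPO2 levels here, few reads were implied. The RSPO2 values correspond to 9 to 11 reads at the shortest transcript. The ratio of R-spondin2 to control was 0.911 with an interval of 0.332 to 2.53, so that a 2-fold difference in either direction would not have been resolved. RSPO1 was at 0.04, 0.09, 0.04 and 0 FPKM, or at most 2 implied reads. For clone 2, a count of 0 allows up to 0.147 FPKM (3 reads, counting error only). No fold is given for RSPO1.

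The make-up of the ligand class differed between the libraries. The summed level of the 4 ligands was 8.18 FPKM in control, 9.53 FPKM with R-spondin2, 6.97 FPKM in clone 1 and 6.12 FPKM in clone 2. RSPO3 held 52.2% of this sum in control and 62.2% with R-spondin2, but 11.05% in clone 1 and 27.6% in clone 2. RSPO4 held 41.8% and 32.5% in the wild type libraries and 81.9% and 64.2% in clones 1 and 2. RSPO3 was thus 1.25 times RSPO4 in control and 1.91 times RSPO4 with R-spondin2, whereas RSPO4 was 7.42 times RSPO3 in clone 1 and 2.33 times RSPO3 in clone 2.

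**Figure D2:**
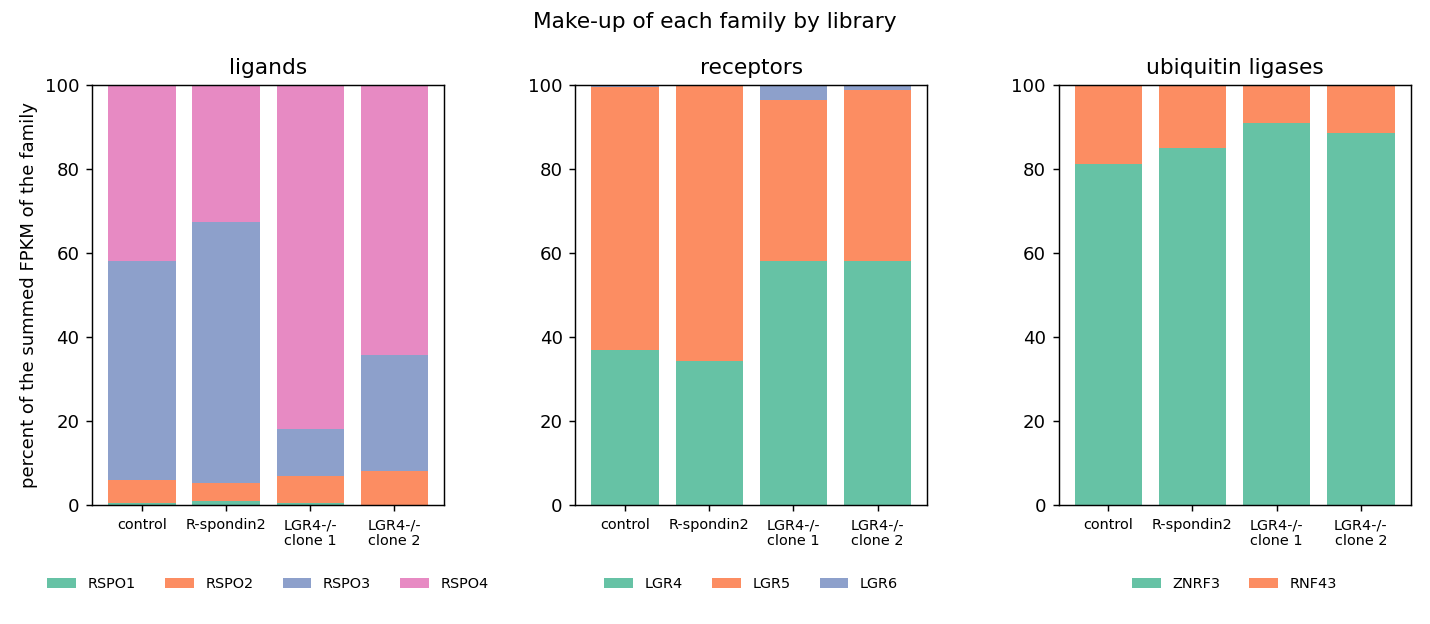
Percent of the summed FPKM of each class (ligands, receptors, ubiquitin ligases) held by each of its genes, 1 stacked bar for each library. RSPO4 and LGR4 hold the largest share of their class in both clones, RSPO3 and LGR5 in the control and R-spondin2 libraries, and ZNRF3 holds at least 81.1% of the ligase sum throughout.

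LGR5 differed more between the libraries than any other member on the log2(FPKM+1) scale. LGR5 marks stem cells of the intestine and other epithelia and binds R-spondins as LGR4 does. Its level was 36.7 FPKM in the control library, 46.3 FPKM with R-spondin2, 4.85 FPKM in clone 1 and 9.78 FPKM in clone 2. The wild type and LGR4-/- libraries did not overlap, and the control level was 3.75 times that of the higher clone. Relative to control, LGR5 was 7.57-fold lower in clone 1 (interval 6.23 to 9.28 at the shortest of 3 transcripts) and 3.75-fold lower in clone 2 (interval 3.23 to 4.35). The log2 differences were -2.69 and -1.81, and their mean was -2.25 ± 0.62 (SD, n = 2 clones). Only 5 of the 12697 genes had a lower mean difference. Clone 2 was 2.02-fold above clone 1 (interval 1.61 to 2.55). With R-spondin2, LGR5 was 1.26 times the control level (interval 1.15 to 1.38), a log2 difference of 0.33 that was exceeded by 4.06% of all genes tested.

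LGR6, the remaining receptor, was near the lower limit of these libraries. It was at 0.31 FPKM in control, 0.19 FPKM with R-spondin2, 0.46 FPKM in clone 1 and 0.30 FPKM in clone 2, from 4 to 10 reads at the shortest of its 3 transcripts. Its ratio in clone 1 to control was 1.48 with an interval of 0.491 to 4.43. All LGR6 intervals held 1 and were wide.

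The order of the receptors was turned in the clones. LGR5 was 1.69 times LGR4 in control and 1.91 times LGR4 with R-spondin2, whereas LGR4 was 1.53 times LGR5 in clone 1 and 1.43 times LGR5 in clone 2. Although LGR4 was the targeted gene, it made up 58.2% and 58.1% of the summed receptor level in clones 1 and 2, against 37.0% in control and 34.3% with R-spondin2. The sum itself was 58.8 FPKM in control, 70.7 FPKM with R-spondin2, 12.7 FPKM in clone 1 and 24.03 FPKM in clone 2. LGR6 was at most 0.46 FPKM of it.

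ZNRF3 and RNF43, the ligases that remove Frizzled receptors, did not move together. ZNRF3 was at 7.61, 7.28, 8.12 and 7.80 FPKM in control, R-spondin2, clone 1 and clone 2, and its highest value was 1.12 times its lowest. Its ratio to control was 0.957 with R-spondin2 (interval 0.772 to 1.19), 1.07 in clone 1 (interval 0.867 to 1.31) and 1.02 in clone 2 (interval 0.829 to 1.26), each at the shorter of its 2 transcripts. RNF43 was at 1.77, 1.28, 0.81 and 1.01 FPKM in the same order, and the control library was the highest. It was 2.19-fold lower in clone 1 (interval 1.48 to 3.24) and 1.75-fold lower in clone 2 (interval 1.22 to 2.54). On the log2(FPKM+1) scale these differences were -0.61 and -0.46, below the 2-fold limit. With R-spondin2, RNF43 was 0.723 times the control level (interval 0.510 to 1.01). A length was known for 1 of its 3 transcripts, so these intervals hold for that length of 5516 bases.

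The balance of the classes therefore differed as well. The summed receptor level was 6.27 times the summed ligase level in control and 8.26 times with R-spondin2, but 1.42 times in clone 1 and 2.73 times in clone 2. In both clones, the larger part of the receptor sum was RNA of LGR4, the targeted gene, which may not encode an intact receptor. The ratio of summed ligands to summed ligases was 0.872, 1.11, 0.781 and 0.695 in the same order.

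**Figure D3:**
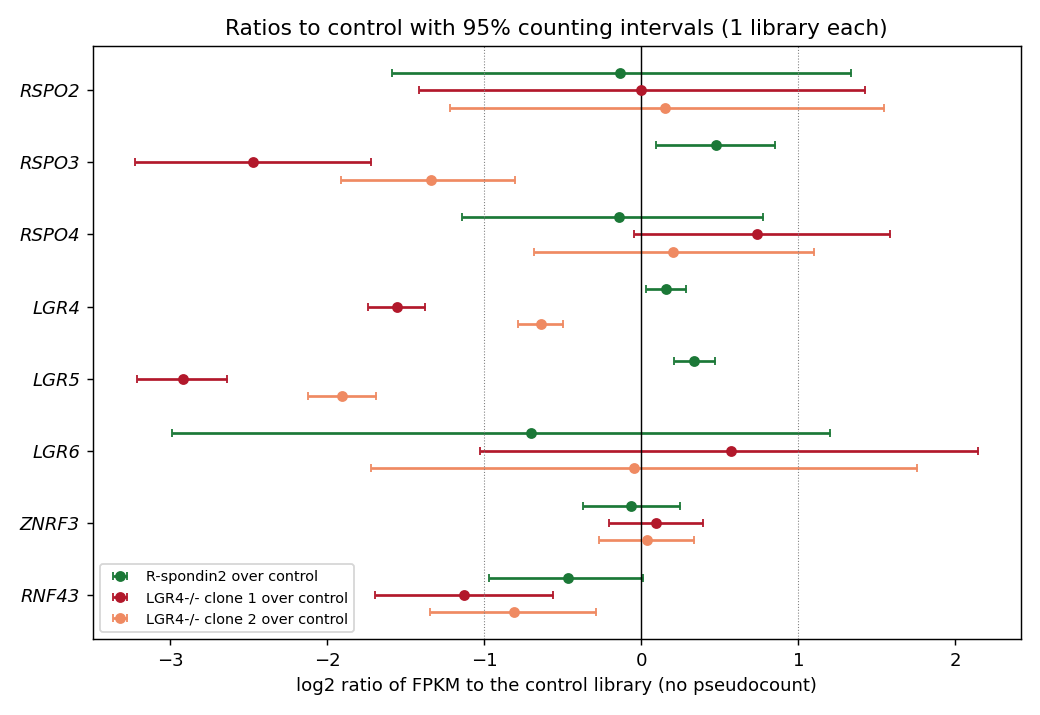
Log2 ratio of FPKM to the control library (x axis, no pseudocount) for the 8 members with enough implied reads, 1 library against 1 library. Points are R-spondin2 and the 2 LGR4-/- clones, bars are 95% counting intervals at the shortest transcript, and dotted lines mark 2-fold. LGR5 lies to the left of the 2-fold line in both clones with its whole interval, and ZNRF3 lies near 0 in every comparison.

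Of the 6 members tested, none was called in R-spondin2 against control, where 0.221% of all genes were called in either direction. In LGR4-/- against control, LGR5 was the only member called in both clones, 1 of 6, and it was lower, as 1.08% of all genes were. RSPO3, LGR4 and LGR5 were called lower in clone 1, 3 of 6 against 2.26% of all genes. In clone 2 it was LGR5 alone, 1 of 6 against 1.17% of all genes. LGR4 is the targeted gene, so its place in the clone counts, here and below, is not evidence about the other members. No member was called higher in clone 1 or in clone 2, where 1.27% and 0.331% of all genes were. Between the clones no member was called, against 0.252% of all genes. The members share their libraries and are few, so these counts are a description. By counting error alone, 3 of 8 members with an interval (RSPO3, LGR4 and LGR5) were higher with R-spondin2 than in control and none was lower, while 10.3% of the genes with a single transcript of known length were higher and 10.8% were lower by the same criterion. By this criterion 4 of 8 (RSPO3, LGR4, LGR5 and RNF43) were lower than control in clone 1 and again in clone 2, against 18.2% and 14.6% of such genes. RSPO3, LGR4 and LGR5 were also higher in clone 2 than in clone 1 beyond counting error, against 11.4% of such genes. Reads set how easily a gene passes this criterion, and the shares were not matched for them. Clone 2 thus lay between clone 1 and the control library for RSPO3, LGR4 and LGR5. This was not particular to them, as fewer genes were called in clone 2 over all genes tested. There 149 were lower and 42 higher than control, against 287 and 161 in clone 1.

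Other WNT pathway genes, R-spondin partners, and receptors and ligases related to the members were examined in 9 lists. These held 106 genes in all, of which 79 were tested, and not all of them are WNT pathway genes. With R-spondin2, 1 of the 79 was called, GPC3, and it was lower. In both clones 5 of the 79 were called, all lower: WNT5A, WNT8A, DKK1, NKD1 and CDX2. The median difference of the 79 genes was 0.02 with R-spondin2 and -0.10 in the mean of the clones, beside -0.01 and 0.02 over all genes tested.

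Among 9 tested WNT ligands, 2 were called lower in both clones and none higher. WNT5A, a ligand known mainly for signaling that does not use β-catenin, was at 31.5 FPKM in control, 42.5 FPKM with R-spondin2, 6.12 FPKM in clone 1 and 11.3 FPKM in clone 2. WNT8A, which acts through β-catenin in the early embryo, was at 11.2, 7.89, 3.45 and 4.03 FPKM in the same order. The list had a median of -0.54 in the mean of the clones and of 0.05 with R-spondin2. None of 12 Frizzled and LRP receptors, the proteins that ZNRF3 and RNF43 act on, was called in either comparison, and their medians were -0.28 and -0.06. None of 11 cytoplasmic components and none of 8 nuclear effectors was called.

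Of 16 β-catenin target genes tested, 3 were called lower in both clones and none with R-spondin2. NKD1, a feedback inhibitor of WNT signaling, was at 19.3 FPKM in control, 22.2 FPKM with R-spondin2, 5.22 FPKM in clone 1 and 8.70 FPKM in clone 2. DKK1, a secreted blocker of LRP co-receptors that is also the 1 gene called among 10 tested antagonists, was at 139.1, 173.3, 39.4 and 62.0 FPKM. CDX2, a factor of the posterior body axis, was at 8.80, 5.89, 2.87 and 3.53 FPKM. These genes were among 10 of the 16 targets that were lower than control in both clones, and 2 were higher than control in both. AXIN2, a scaffold of the β-catenin destruction complex that is widely used as a WNT readout, was at 20.2, 19.3, 17.6 and 20.8 FPKM in the same order. It was not lower than control in clone 2. SP5, a transcription factor, was at 107.7, 106.4, 77.5 and 102.2 FPKM, lower in both clones but not called. ZNRF3 was thus close to level in the same libraries as AXIN2, and LGR5 and RNF43 were lower in the clones as NKD1 was. The median of the 16 targets was -0.54 in the mean of the clones and 0.06 with R-spondin2.

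Of 13 tested R-spondin co-factors and partners (syndecans, glypicans and other proteins linked to R-spondins or LGR receptors), GPC3 was called lower with R-spondin2, and none was called in both clones. GPC3, a cell surface proteoglycan, was at 18.7 FPKM in control, 8.11 FPKM with R-spondin2, 42.5 FPKM in clone 1 and 31.6 FPKM in clone 2. Both clones were above and the R-spondin2 library was below control, the opposite order to LGR5. Of 6 tested ubiquitin ligases of the PA-TM-RING family, to which ZNRF3 and RNF43 belong, none was called, and their medians were 0.22 in the mean of the clones and 0.03 with R-spondin2.

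**Figure D4:**
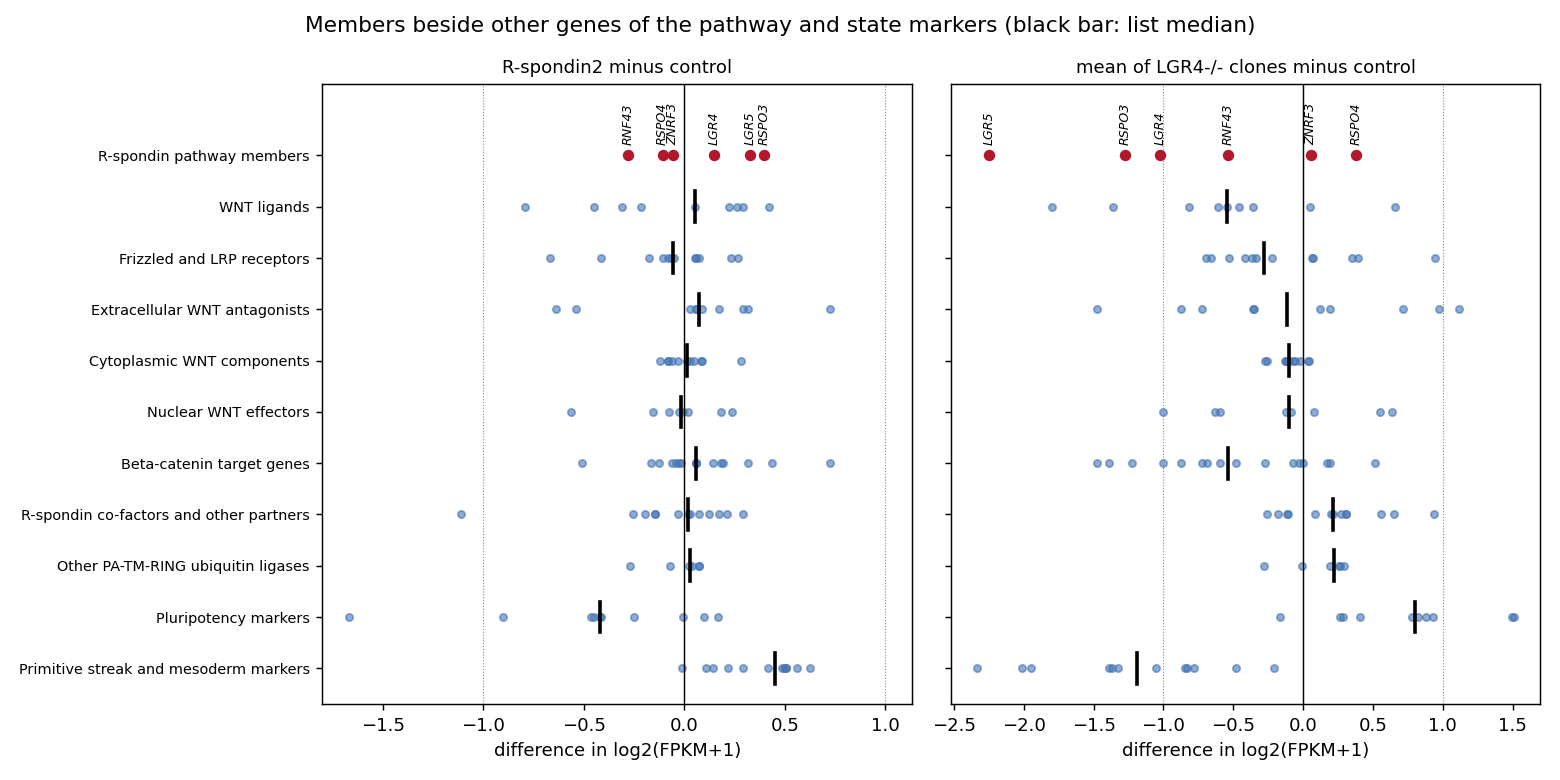
Difference in log2(FPKM+1) from control (x axis) for R-spondin2 (left) and for the mean of the 2 LGR4-/- clones (right). Red points are the 6 members that passed the filter. Blue points are the tested genes of 8 lists of WNT pathway and related genes and of 2 marker lists. Black bars are list medians, and dotted lines mark 2-fold. LGR5 (-2.25), RSPO3 (-1.27) and LGR4 (-1.02) lie to the left in the clones, on the side of the mesoderm markers and opposite to the pluripotency markers.

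The genes whose profiles over the 4 libraries lay closest to those of RSPO3, LGR4 and LGR5 were taken by the smallest Euclidean distance between centered log2(FPKM+1) values. For LGR4 the nearest was LEF1, a nuclear partner of β-catenin, at 8.95 FPKM in control, 10.3 FPKM with R-spondin2, 2.60 FPKM in clone 1 and 5.86 FPKM in clone 2 (distance 0.07). C8orf31 and LRRTM1, a leucine-rich repeat membrane protein, followed at 0.12 and 0.16. For LGR5 the nearest was MYL4, a myosin light chain of embryonic muscle, at 26.3, 34.7, 3.22 and 6.79 FPKM (distance 0.06). NOG, a secreted BMP antagonist, and GYPB, a glycophorin whose reads may be shared with near-identical family members, followed at 0.13 and 0.14. For RSPO3 the nearest were JAKMIP1 (0.08), the cadherin CDH11 (0.08) and the histone gene HIST1H2BN (0.09), which also has near-identical copies. A distance over 4 libraries is a description.

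The summed primitive streak and mesoderm markers had the order of LGR5, LGR4 and RSPO3 over the libraries. The summed pluripotency markers had that of RSPO4 and of ZNRF3, although ZNRF3 was close to level. RNF43 had neither order. All 12 primitive streak and mesoderm markers were lower than control in both clones, and 4 were called: MESP1, HAND1, FOXF1 and APLNR. The summed level of the list was 1221 FPKM in control, 1604 FPKM with R-spondin2, 432.4 FPKM in clone 1 and 672.9 FPKM in clone 2, which is the order of LGR5, LGR4 and RSPO3. HAND1, a factor of lateral mesoderm, was at 70.0, 99.8, 8.59 and 19.8 FPKM. MIXL1, a primitive streak factor, was at 376.6, 528.2, 173.6 and 257.4 FPKM, and T, another one, was at 70.3, 77.8, 37.6 and 66.5 FPKM. Of 10 pluripotency markers, 9 were higher than control in both clones and 2 were called, SOX2 and PRDM14. Their sum was 1643, 1342, 2663 and 2457 FPKM in the same order. SOX2 was at 19.9, 5.58, 66.0 and 50.7 FPKM and was also called lower with R-spondin2, and POU5F1 was at 597.1, 445.8, 1068 and 988.3 FPKM. In a bulk library, fewer cells of a type and less RNA per cell cannot be told apart. The part of the state of the cells in the differences of LGR5, LGR4, RSPO3, RSPO4, ZNRF3 and RNF43 was not tested.

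Of the other cell types, 1 of 5 tested endoderm markers was called lower in both clones (GATA6, which mesoderm also expresses), and 4 of the 5 were lower than control in both clones. The sum of that list was 206.8, 254.4, 79.4 and 105.2 FPKM in control, R-spondin2, clone 1 and clone 2, the order of LGR5 and of the mesoderm list. Of 2 tested neuroectoderm markers, HES3 was called higher in both clones and lower with R-spondin2. OTX2, the other, was not called and went the opposite way, at 41.96, 54.9, 38.65 and 35.85 FPKM in the same order. NEUROG1, from the same list, was at 0 in all libraries. The sum of the list, most of it OTX2, ranged from 47.8 to 59.3 FPKM. Of 6 tested stromal fibroblast markers, LUM was called lower in both clones. Of the same 6, 4 were lower than control in both clones and 1, COL1A1, was higher in both. With R-spondin2, all 6 were higher than control, with a median difference of 0.47. The sum of the list was 201.4, 272.7, 169.0 and 189.8 FPKM, again the order of LGR5 and of the mesoderm list. Within the list, FAP was at 0 in all libraries, DCN and POSTN were at most 0.27 and 0.39 FPKM, and the others were expressed. COL1A2 ranged from 79.4 to 153.0 FPKM, COL1A1 from 64.0 to 83.6 FPKM, ACTA2 from 6.78 to 11.3 FPKM, COL3A1 from 4.29 to 9.86 FPKM and PDGFRB from 2.86 to 5.52 FPKM. The part of these markers in the differences of the members was not tested.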

How the data were processed

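RNA-SEQ of sorted day 2 cells was analysed in 4 libraries, grouped by their labels. The authors deposited FPKM per gene, 1 table for each library. The submitters' processing notes name BWA, Bowtie, RSEM and the build hg19, without versions, and filters are not given in the sources used here. No counts were used, so no count model was applied. Members were matched by symbol. The members and gene lists were chosen with earlier results of these data known.

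Differences were taken as log2(FPKM+1) after a filter of a mean of at least 1 FPKM, and called at 2-fold. With 1 control library no test was run. Depth was estimated at the number of reads, searched in steps of 10000, at which FPKM below 0.6 of genes with a single transcript shorter than 1500 bases were nearest to whole read numbers. At the estimates, 76.0% to 78.2% of these values were no more than 0.2 from a whole number of reads, against 34.3% to 35.0% at the median of all depths searched. Transcript lengths came from GENCODE release 29, and 8068 genes with a single transcript had a length. The FPKM steps cannot be read for genes with several transcripts, whose implied reads are given at the shortest and, where it matters, the longest transcript. Intervals (95%, Clopper-Pearson) were computed from at least 10 implied reads in both libraries together. The scripts were tested on simulated data.

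Genes named besides the members were set by rule: the 3 nearest profiles of each member with a range of at least 1 on the log2 scale, up to 4 called genes with the largest difference from each list, AXIN2, LEF1, SP5 and NKD1, and POU5F1, SOX2, T and MIXL1. Other genes named were chosen after their values were seen. Computations used Python 3.11.15, numpy 2.4.6, scipy 1.17.1, pandas 2.3.3 and matplotlib 3.10.9. Alternatives were another pseudocount, other filters, rescaling, a 1.5-fold limit, each clone left out and the R-spondin2 library as reference.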

Additional observations from a re-analysis of the deposited data

How the results depend on the processing

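The 6 members past the filter kept the sign of their differences under each alternative that gave one. Another pseudocount or filter cannot turn a sign, and the rescaling factors were only 0.989 to 1.016. For these settings the kept sign is therefore little of a check, and leaving out a clone shows only that both clones had the same sign. LGR5 was called lower in LGR4-/- under all alternatives, and none of the members was called with R-spondin2. The mean difference of LGR5 in the clones ranged from -2.69 to -1.81, and that of LGR4 from -1.44 to -0.61, each end being 1 clone left out. With a pseudocount of 0.1, 2 members were called lower in both clones (RSPO3 and LGR5), 32 genes were higher and 107 lower with R-spondin2, 116 higher and 230 lower in both clones, and 93 higher and 49 lower in clone 2 than in clone 1. At 1.5-fold, 3 members were called lower (RSPO3, LGR4 and LGR5), and these counts were 68 and 187, 332 and 392, and 172 and 136. With a mean of at least 5 FPKM, which left 3 members, they were 0 higher and 14 lower with R-spondin2, 18 higher in both clones, and 10 higher and 2 lower between the clones. Without a filter, 12 genes were higher with R-spondin2. With the R-spondin2 library as reference, 2 members were called lower (RSPO3 and LGR5), 212 genes were higher and 230 lower. With 1 clone left out, the members called lower ranged from 1 (without clone 1) to 3 (without clone 2), the genes higher from 42 to 161 and the genes lower from 149 to 287. RNF43 moved from -0.54 to -0.90 with the pseudocount of 0.1 and to -0.26 against the R-spondin2 library. The cause of these moves was not tested beyond what each setting changes by its construction. No paired analysis was possible because each group of wild type cells has 1 library. The lone control library limits every difference, and low levels limit RSPO1, RSPO2 and LGR6.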

Other observations

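Some genes that are related to the members by ligand or by structure also differed between the libraries. TNFSF11 (RANKL), known from bone as another ligand of LGR4, was at 0.20 FPKM in control, 0.05 FPKM with R-spondin2, 1.11 FPKM in clone 1 and 1.33 FPKM in clone 2. Its mean was below the filter. FSHR, a hormone receptor of the same leucine-rich repeat class as the LGR receptors, was at 4.39, 3.91, 0.64 and 1.72 FPKM in the same order, past 2-fold in clone 1 (-1.72) and just short of it in clone 2 (-0.99). The related receptors LHCGR, TSHR and RXFP1 were at most 0.11 FPKM in any library. GPC4, a glypican like GPC3, was at 64.3 FPKM in control, 53.8 FPKM with R-spondin2, 109.4 FPKM in clone 1 and 94.5 FPKM in clone 2. SFRP1 and SFRP2, secreted proteins that bind WNT ligands, had the same order, with SFRP1 at 28.8, 18.1, 82.2 and 48.9 FPKM and SFRP2 at 73.9, 50.5, 149.2 and 142.8 FPKM. FZD5 was at 6.0, 5.51, 13.6 and 11.4 FPKM and was the Frizzled with the largest difference in the clones, higher rather than lower. These genes were chosen after their values were seen.

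In the process annotation deposited with the values, 2 of the 9 members, RSPO1 and RSPO2, carried a term that names Wnt, as 157 genes (0.877%) did. Both were below the filter, so that a WNT gene list drawn from that annotation would hold none of the 6 members that passed it.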
